A study of Homo sapiens with 8 samples.

Results

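Interferon-stimulated genes are the genes that cells switch on when type I interferon reaches them, and 47 of them, listed by symbol as targets of type I interferon or as sensors of viral RNA, were followed among the 25192 gene symbols measured in human colorectal cancer cells depleted of PRDX2. Members were matched by the exact gene symbol. The matching used no measured value, but the list was chosen with earlier results of these data known. PRDX2 encodes peroxiredoxin II, an enzyme that removes peroxides. HT29 and SW480 are established colorectal cancer cell lines, and the comparison asks which transcripts change when this enzyme is depleted. For each line, messenger RNA was sequenced from 2 libraries of cells transfected with control siRNA and from 2 libraries of cells transfected with Prdx2 siRNA, all 36 hr after transfection. HT29 cells were grown in McCoy's 5A medium and SW480 cells in RPMI1840 medium, each with fetal bovine serum, so that line and medium cannot be told apart. No group received interferon or virus, but every group was transfected with siRNA. The control and Prdx2 siRNAs differ in sequence, so responses to the siRNA itself and to PRDX2 depletion cannot be told apart. The labels call the experiments duplicates without saying if cells were transfected separately, so the p-values reflect only how far duplicates varied, which may be technical variation.

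In this pathway, type I interferon binds the receptor pair IFNAR1 and IFNAR2, and the attached kinases JAK1 and TYK2 phosphorylate STAT2, which joins IRF9 in a complex that binds a short DNA element, the interferon-stimulated response element, in the promoters of its targets. The products detect or cut viral RNA, block translation, entry or release of virus, or attach the ubiquitin-like protein ISG15 to other proteins. In epithelial cells many of these genes also have a standing level without added interferon.

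The core of the response element was searched in promoters to show what the members share in sequence. The letters searched were GAAANNGAAA on both strands, where overlapping matches were each counted. The window ran from 250 bases before to 50 bases after the RefSeq gene start (GRCh38.p14). Of the 47 members, 39 had a promoter entry and 27 of these (69.2%) held a match, whereas 1195 of all 27305 gene symbols in the promoter table (4.38%) did. Among 39 other interferon-stimulated genes outside the member list, 28 had an entry and 12 (42.9%) held a match. IRF7, USP18, IFIT2, OAS2, OASL, IFITM2, MX2 and TRIM22 had no entry. The 12 members with an entry and no match were DDX58, STAT2, IRF1, IRF9, UBE2L6, HERC6, OAS1, IFI35, XAF1, SAMD9L, SP100 and SP110. A match describes letters in this window and does not show that a factor binds there.

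The stretches around the matches are given for the 8 members with a match that had the smallest p in HT29 cells, as examples of the letters found. They are not the only members called. Each reads 5′ to 3′ in the direction of the gene, with the matches in capitals. IFIT1 and IFIT3 carried both of their matches on the opposite strand, and IFI27 carried 1 of its 2 there. Counted from its first base, the first match began 108 bases before the gene start in IFI27, 156 in IFI6, 88 in DDX60, 113 in ISG15, 130 in BST2, 58 in LGALS3BP, 116 in IFIT1 and 156 in IFIT3.
IFI27 (chr14:94110583-94110695, plus strand): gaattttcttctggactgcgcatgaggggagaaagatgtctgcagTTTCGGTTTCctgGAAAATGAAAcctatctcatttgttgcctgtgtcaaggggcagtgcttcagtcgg
IFI6 (chr1:27672231-27672393, minus strand): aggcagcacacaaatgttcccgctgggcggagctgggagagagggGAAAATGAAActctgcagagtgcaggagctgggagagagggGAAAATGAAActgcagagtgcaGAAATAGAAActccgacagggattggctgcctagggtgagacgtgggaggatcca
DDX60 (chr4:168318753-168318885, minus strand): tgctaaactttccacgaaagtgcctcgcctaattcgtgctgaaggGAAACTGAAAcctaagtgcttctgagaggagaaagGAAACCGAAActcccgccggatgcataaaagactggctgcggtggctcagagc
ISG15 (chr1:1013339-1013444, plus strand): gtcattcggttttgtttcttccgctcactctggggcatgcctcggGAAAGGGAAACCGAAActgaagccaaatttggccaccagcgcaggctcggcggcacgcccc
BST2 (chr19:17405700-17405805, minus strand): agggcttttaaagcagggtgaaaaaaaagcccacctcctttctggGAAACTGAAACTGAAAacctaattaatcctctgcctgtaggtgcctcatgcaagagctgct
LGALS3BP (chr17:78979927-78980026, minus strand): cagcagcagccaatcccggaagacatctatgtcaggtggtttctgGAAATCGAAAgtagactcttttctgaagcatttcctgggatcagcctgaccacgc
IFIT1 (chr10:89392462-89392574, plus strand): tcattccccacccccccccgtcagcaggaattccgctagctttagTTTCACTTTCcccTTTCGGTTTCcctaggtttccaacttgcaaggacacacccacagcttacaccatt
IFIT3 (chr10:89327796-89327929, plus strand): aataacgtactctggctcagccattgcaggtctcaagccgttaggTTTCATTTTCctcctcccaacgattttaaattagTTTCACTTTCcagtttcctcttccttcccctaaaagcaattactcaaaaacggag

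The libraries held between 8857442 and 10164137 expected counts, at which 3 counts correspond to between 0.295 and 0.339 CPM (counts scaled to a common library size). The transcript of PRDX2 itself stood at 148 and 154 CPM with control siRNA and 82.4 and 83.2 CPM with PRDX2 siRNA in HT29 (log2 fold change -0.87, SE 0.049). In SW480 it stood at 209 and 246 and 69.5 and 70.7 CPM (log2 fold change -1.70, SE 0.12). The control duplicates of SW480 stood apart from each other by transcript base composition: their log2 difference correlated with transcript GC content across genes at -0.72 (Spearman), against -0.21 to -0.13 for the other 3 pairs of duplicates. SW480 results are therefore given with and without each of these libraries. Of 10 colorectal epithelial markers, all were tested in HT29, where KRT8 and KRT18 were lower (-0.14, SE 0.011, and -0.26, SE 0.010) and KRT20 and CDX2 higher (0.39, SE 0.026, and 0.58, SE 0.14). In SW480 6 were tested and KRT18 was lower (-0.37, SE 0.062), whereas CDH17, KRT20, LGALS4 and CDX1 reached at most 1.11 CPM in any SW480 library. Of 6 leukocyte markers, PTPRC was at 0 in all 8 libraries and CD3E had at most 1 count. The leukocyte list summed to 49.7 and 53.7 TPM (a level scaled by transcript length and library) with control siRNA and to 50.6 and 43.3 TPM with PRDX2 siRNA in HT29, where CD68 fell by 0.40 on the log2 scale (adjusted p = 0.021, edgeR). In SW480 the same list, mostly CD74, summed to 95.8 and 115.6 TPM with control siRNA and to 149.8 and 148.2 TPM with PRDX2 siRNA. Of 6 fibroblast and endothelial markers, DCN was at 0 in all 8 libraries, and the list summed to 1.23 to 2.31 TPM in HT29 and 9.11 to 10.9 TPM in SW480. The part of these markers in the changes below was not tested.

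In HT29 cells, interferon-stimulated genes fell after PRDX2 depletion. Of the 46 members with enough counts to test, 29 (63.0%) were lower with an adjusted p under 0.05 and none was higher, whereas 9.82% of all 12961 genes tested were lower and 7.76% were higher. The median log2 fold change of the tested members was -0.36, beside 0.00 for all genes tested. As the list was chosen with earlier results of these data known, this contrast only describes the listed genes. Members were distributed between -1.65 for HERC5 and 0.22 for ISG20. For 41 of the 46 tested members, the higher PRDX2 siRNA value was under the lower control value, which was the case for 28.7% of all genes tested. TRIM22, a tripartite motif protein, had too few counts in both lines, with between 1 and 8 counts in any library. The test was edgeR's quasi-likelihood test on the 4 HT29 libraries with Benjamini-Hochberg adjustment over all genes tested, and each adjusted p in HT29 or SW480 below comes from it. With all 8 libraries fitted together the number of lower members was 12 (26.1%), while the share of all genes lower dropped to 0.670%. With DESeq2 it was 19 (41.3%), while 4.29% of all genes were lower and 11 of the members received no adjusted p. On log2(TPM + 1) with limma, 20 members were lower while the split over all genes moved to 1252 higher and 548 lower, beside 1006 higher and 1273 lower in edgeR. In cultures measured as a whole, fewer cells expressing a gene and less RNA per cell cannot be told apart.

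**Figure D1:**
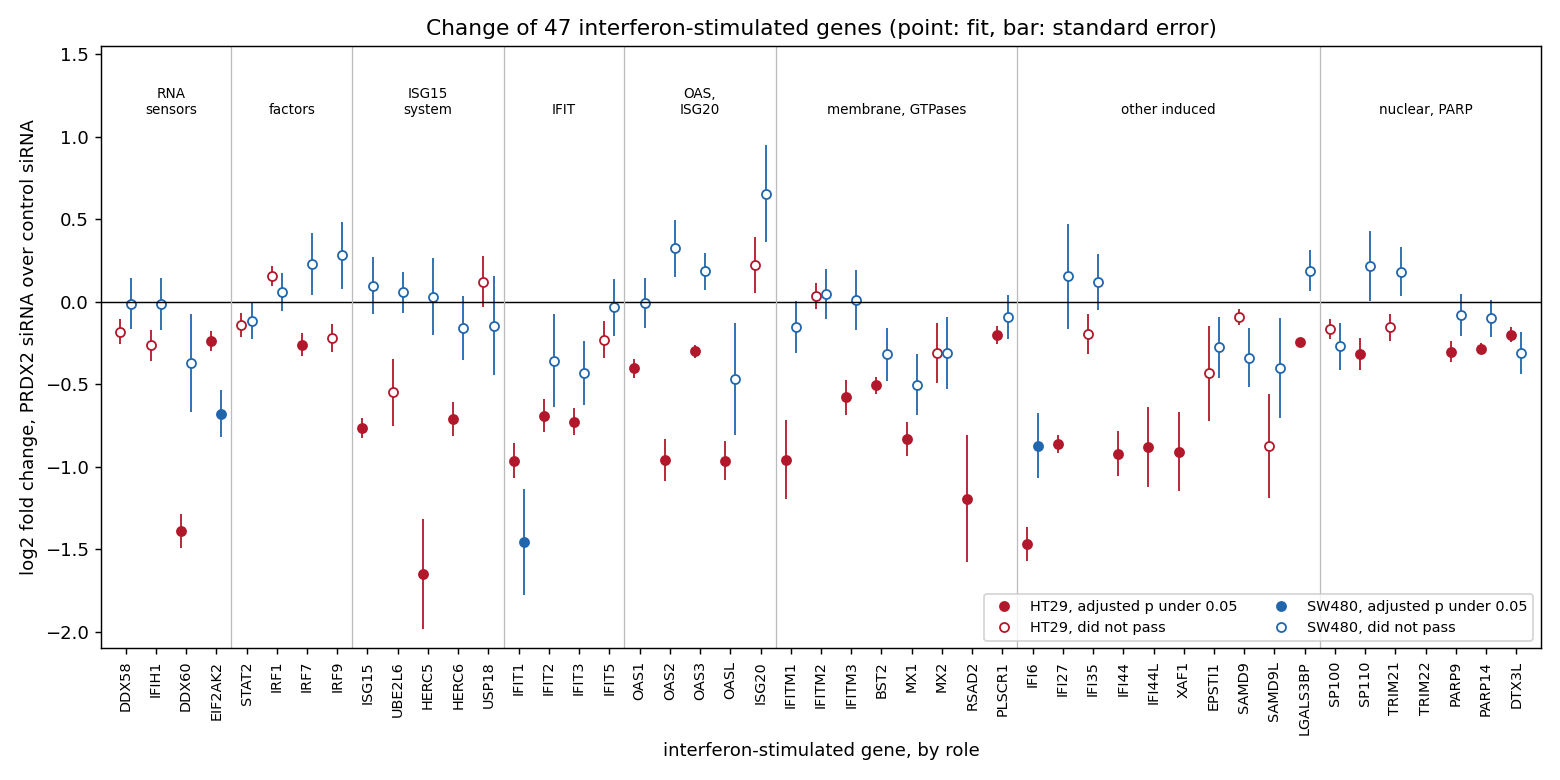
The log2 fold change of each member (PRDX2 siRNA over control siRNA, vertical axis) is plotted by role for HT29 in red and SW480 in blue, with the standard error as a bar and filled points where the adjusted p was under 0.05. In HT29 29 filled points lie below 0 and none above, and in SW480 3 are filled, all below 0. Members without a point had too few counts.

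Among the sensors of double-stranded RNA, the clearest fall was that of DDX60, a helicase linked to sensing by RIG-I. DDX60 was measured at 41.5 and 35.3 CPM with control siRNA and at 15.1 and 14.1 CPM with PRDX2 siRNA. The groups were far apart, with a log2 fold change of -1.39 (SE 0.10, adjusted p = 3.83e-08). EIF2AK2, the RNA-activated kinase that blocks translation, stood at 76.2 and 77.5 and 68.9 and 61.0 CPM, a small change of -0.24 (SE 0.062, adjusted p = 0.0118). The RNA helicases DDX58 (RIG-I) and IFIH1 (MDA5) did not pass the test, at -0.18 (SE 0.076) and -0.26 (SE 0.095), although both of their PRDX2 siRNA libraries lay below both controls.

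Of the transcription factors, only IRF7, the factor that amplifies interferon production, passed the test in HT29. It stood at 49.4 and 55.6 CPM with control siRNA and at 43.1 and 44.5 CPM with PRDX2 siRNA, -0.26 on the log2 scale (SE 0.071, adjusted p = 0.0159). The call was lost without control replicate 2 and without PRDX2 siRNA replicate 1, and also with DESeq2, with limma and with all 8 libraries fitted together. STAT2 and IRF9, both parts of the complex at the response element, were at -0.14 (SE 0.072) and -0.22 (SE 0.084). IRF1, a factor also induced by interferon gamma, was at 0.16 (SE 0.062), with both PRDX2 siRNA libraries above both controls.

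In the ISG15 group, ISG15, HERC5 and HERC6 fell. ISG15 stood at 90.7 and 98.4 CPM with control siRNA and 57.5 and 53.4 CPM with PRDX2 siRNA, a log2 fold change of -0.77 (SE 0.06, adjusted p = 8.37e-08). HERC5, the ligase that attaches ISG15 to new proteins, had the lowest fold change of the members but few counts, at 3.80 and 2.92 CPM against 1.17 and 0.946 CPM (-1.65, SE 0.33, adjusted p = 0.00205). HERC6, a related ligase, stood at 24.0 and 24.8 CPM against 15.2 and 14.6 CPM (-0.71, SE 0.10). The 4 libraries of HERC6 did not overlap between groups, nor did those of ISG15 and HERC5. UBE2L6, the enzyme that hands ISG15 to the ligase, was at -0.55 (SE 0.20, adjusted p = 0.0742) and did not pass. USP18, which removes ISG15 and dampens the receptor, was at 0.12 (SE 0.15) with overlapping groups.

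Of the 4 IFIT genes, whose proteins bind foreign RNA, 3 fell in HT29. IFIT1 stood at 25.2 and 28.1 CPM with control siRNA and 13.8 and 13.5 CPM with PRDX2 siRNA (-0.96, SE 0.11, adjusted p = 5.15e-06). IFIT2 stood at 35.1 and 35.5 and 24.4 and 19.1 CPM (-0.69, SE 0.099) and IFIT3 at 42.8 and 38.8 and 24.8 and 24.5 CPM (-0.73, SE 0.082). IFIT5 did not pass, at -0.23 (SE 0.11). The 4 genes lie close together on chromosome 10 of GRCh37 between 91043451 and 91181362, with IFIT1B, which was not tested, between IFIT3 and IFIT1, inside a stretch that the annotated span of LIPA on the other strand overlaps, and LIPA was at -0.17 (SE 0.068, adjusted p = 0.0987).

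The oligoadenylate synthetases, which make the short RNA messenger that activates RNase L, fell together in HT29. OAS2 stood at 19.1 and 22.6 CPM with control siRNA and 10.5 and 10.9 CPM with PRDX2 siRNA (-0.96, SE 0.13, adjusted p = 3.67e-05). OAS1 stood at 67.3 and 66.8 and 50.5 and 50.8 CPM (-0.40, SE 0.059), and OAS3, the most abundant of them in CPM, at 222 and 221 and 177 and 183 CPM (-0.30, SE 0.039). These 3 genes form a cluster on chromosome 12 between 113343661 and 113449528, in which OAS2 showed the lowest fold change. OASL, a related protein without synthetase activity elsewhere on the chromosome, stood at 25.0 and 23.8 and 11.1 and 14.0 CPM (-0.96, SE 0.12, adjusted p = 1.89e-05). ISG20, an RNA exonuclease, was at 0.22 (SE 0.17, adjusted p = 0.421).

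Of the 8 membrane proteins and antiviral GTPases, 6 fell. BST2, which tethers budding virus to the cell surface, stood at 123 and 126 CPM with control siRNA and 89.5 and 85.7 CPM with PRDX2 siRNA (-0.51, SE 0.049, adjusted p = 9.6e-07). MX1, a dynamin-like GTPase, stood at 26.7 and 26.5 and 14.4 and 15.5 CPM (-0.83, SE 0.10), while its neighbour MX2 was at -0.31 (SE 0.18) and did not pass. The annotated end of MX1 on chromosome 21 overlaps TMPRSS2 on the other strand, which was at 0.12 (SE 0.057). Reads of overlapping genes were not told apart by strand, as the kit does not mark it. The IFITM genes, whose proteins hinder virus fusion, are related neighbours on chromosome 11 between 303655 and 329475. Their sequences were not compared, so how far reads were shared between them is uncertain. IFITM1 stood at 4.72 and 5.32 CPM against 2.73 and 2.42 CPM (-0.96, SE 0.24, adjusted p = 0.00952), and IFITM3 at 30.0 and 29.1 CPM against 17.4 and 22.3 CPM (-0.58, SE 0.11). IFITM2 stood at 31.0 and 30.4 and 32.0 and 30.7 CPM, with overlapping groups. RSAD2 (viperin), an antiviral enzyme of the endoplasmic reticulum, rested on few counts, with 18 and 36 in the control libraries and 12 in each PRDX2 siRNA library, or 1.85 and 3.76 and 1.17 and 1.26 CPM (-1.19, SE 0.38, adjusted p = 0.0394). Its call was lost without control replicate 2 and without either PRDX2 siRNA library. PLSCR1, a phospholipid scramblase, stood at 72.4 and 70.1 and 62.0 and 61.9 CPM (-0.20, SE 0.056, adjusted p = 0.0189), and its call was lost without control replicate 1 and without either PRDX2 siRNA library.

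The next group, of mixed interferon-induced genes, included the most precise falls. IFI27, a mitochondrial protein, had the smallest p of the members, at 127 and 136 CPM with control siRNA and 74.8 and 69.6 CPM with PRDX2 siRNA (-0.86, SE 0.054, adjusted p = 5.52e-09). IFI6, which counteracts cell death, stood at 35.0 and 34.9 CPM against 11.3 and 14.0 CPM (-1.47, SE 0.11, adjusted p = 2.58e-08). The PRDX2 siRNA level of IFI6 was 0.361 of the control level in the fit. The neighbours IFI44 and IFI44L on chromosome 1 stood at 20.3 and 21.9 against 9.56 and 12.8 CPM (-0.92, SE 0.13) and at 5.13 and 4.38 against 2.44 and 2.73 CPM (-0.88, SE 0.24, adjusted p = 0.0179). XAF1, an antagonist of the inhibitor of apoptosis XIAP, stood at 5.95 and 4.70 against 3.12 and 2.52 CPM (-0.91, SE 0.24, adjusted p = 0.0137). Calls of these low genes were less stable: IFI44L lost its call without control replicate 1 and without PRDX2 siRNA replicate 1, and XAF1 without control replicate 1 and without PRDX2 siRNA replicate 2. LGALS3BP, a secreted glycoprotein that binds galectins, was the most abundant member, at 932 and 952 CPM against 774 and 817 CPM (-0.24, SE 0.025, adjusted p = 1.75e-06). IFI35, EPSTI1, SAMD9 and SAMD9L did not pass the test. Of these, SAMD9L was at -0.87 (SE 0.31, adjusted p = 0.0648) at under 4 CPM in every library, and SAMD9, its abundant neighbour on chromosome 7, was at -0.09 (SE 0.047).

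Of the group of SP, TRIM and PARP genes with DTX3L, 4 of the 6 tested fell, by small amounts. PARP14, a mono-ADP-ribosyltransferase, stood at 316 and 318 CPM with control siRNA and 266 and 255 CPM with PRDX2 siRNA (-0.29, SE 0.034, adjusted p = 1.36e-05). PARP9 and DTX3L, which act as 1 ubiquitin ligase complex, stood at 97.6 and 84.9 against 71.3 and 76.8 CPM (-0.30, SE 0.064) and 162 and 154 against 134 and 142 CPM (-0.20, SE 0.047). They start head to head on chromosome 3, where DTX3L begins at 122283185 and PARP9 at 122283424. SP110, a nuclear body protein, stood at 27.9 and 24.5 against 21.8 and 20.2 CPM (-0.32, SE 0.099, adjusted p = 0.0346), and its call was lost without control replicate 1 and without either PRDX2 siRNA library. EIF2AK2 lost its call without PRDX2 siRNA replicate 2, as did IFITM1, and DTX3L without PRDX2 siRNA replicate 1. Calls of EIF2AK2, PLSCR1, SP110 and DTX3L were also lost with DESeq2, with limma and with all 8 libraries fitted together. Those of PARP9, RSAD2, IFI44L and XAF1 were lost with limma and with all 8 libraries fitted together. SP100 and TRIM21 did not pass, at -0.17 (SE 0.061) and -0.16 (SE 0.083). In all, the 17 members tested but not called in HT29 ranged from -0.87 to 0.22, with 13 below 0 and adjusted p between 0.0648 and 0.84.

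**Figure D2:**
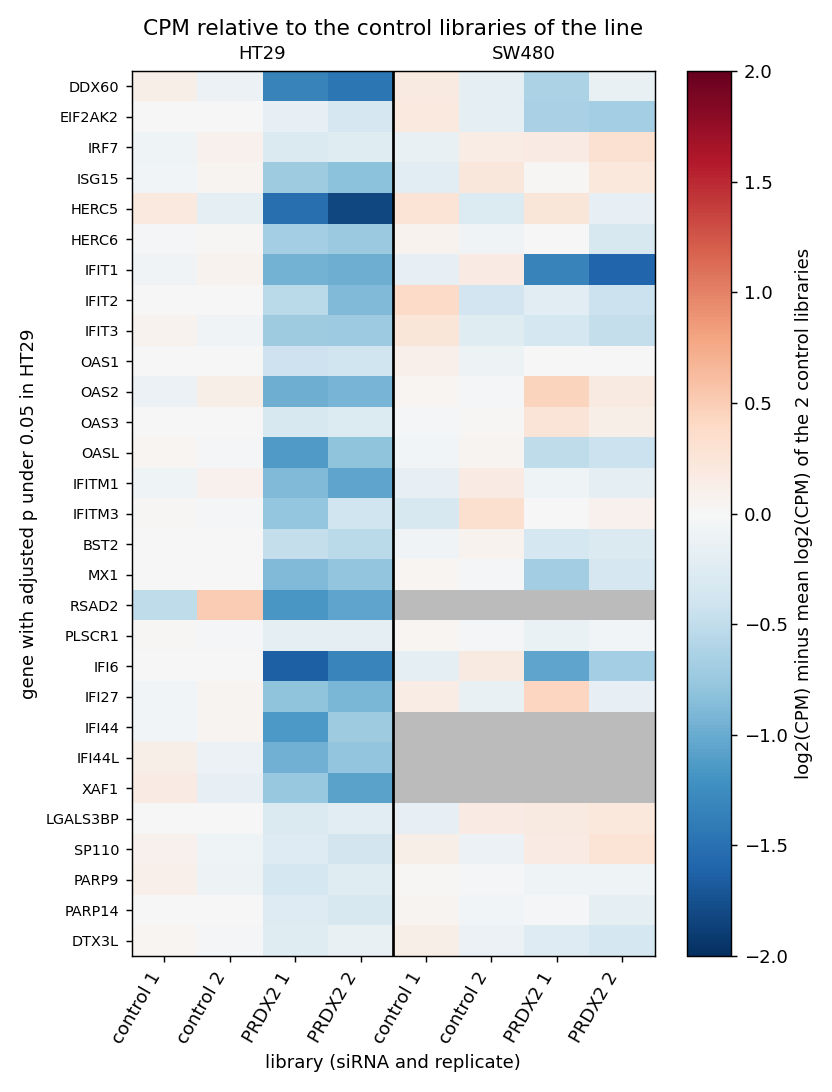
For each of the 29 members called in HT29, color gives log2(CPM) of a library minus the mean of the 2 control libraries of its line, with blue below and red above the controls. Both HT29 PRDX2 siRNA columns are blue in every row, and the SW480 columns hold both colors. Grey marks RSAD2, IFI44, IFI44L and XAF1, which had too few counts in SW480.

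The HT29 changes were set beside the response element core in the promoter windows. Of the 27 tested members with a match, 21 were lower and their median log2 fold change was -0.51, from -1.65 to 0.22. Of the 12 without a match, 4 (HERC6, OAS1, XAF1 and SP110) were lower and the median was -0.27, from -0.91 to 0.16. The difference between these medians was not tested. Over all genes tested that had a promoter entry, 20.1% of the 373 with a match were lower, against 9.35% of the 9612 without, and their medians were -0.03 and 0.01. The 373 include the 27 members with a match, 21 of them lower, and the 9612 include the 12 without. These shares are thus not independent of the members. In SW480 the medians of the members were -0.10 for the 24 with and -0.01 for the 11 without a match.

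In SW480 cells, few interferon-stimulated genes passed the test. Of the 42 members tested, 3 (7.14%) were lower and none was higher, whereas 2.08% of all 14112 genes tested were lower and 1.22% were higher. IFIT1 stood at 3.24 and 4.06 CPM with control siRNA and 1.44 and 1.21 CPM with PRDX2 siRNA (-1.46, SE 0.32, adjusted p = 0.0462). EIF2AK2 stood at 96.9 and 74.0 and 53.8 and 53.0 CPM (-0.68, SE 0.14, adjusted p = 0.0423), and IFI6 at 20.3 and 25.8 and 11.0 and 14.3 CPM (-0.87, SE 0.20, adjusted p = 0.0486). The groups of these 3 genes did not overlap, and all 3 were also lower in HT29. The median log2 fold change of the tested members was -0.09, beside 0.00 for all genes, and 26 of the 42 were below 0. Both PRDX2 siRNA libraries lay below both controls for 15 members (35.7%), against 29.0% of all genes tested, and above both for 8 (19.0%), against 29.6% of all genes tested.

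The other 39 tested members ranged in SW480 from -0.50 for MX1 (SE 0.18, adjusted p = 0.143) to 0.65 for ISG20 (SE 0.29, adjusted p = 0.21), with 23 below and 16 above 0. The standard errors in SW480 had a median of 0.17 among members, against 0.099 in HT29. RSAD2, IFI44, IFI44L and XAF1 were not tested, since RSAD2, IFI44 and IFI44L had at most 1 count in any SW480 library and XAF1 had between 3 and 12. The 3 calls were sensitive to single libraries. They were lost without PRDX2 siRNA replicate 1 and without PRDX2 siRNA replicate 2, where calls over all genes also became far fewer. The median of the members was -0.09 and -0.03 in these 2 fits, beside 0.00 for all genes in both. Without control replicate 1, 7 members were lower and 2 (IFIH1 and OAS3) higher, while 13.1% of all genes tested were lower and 11.4% higher. Without control replicate 2, 12 were lower and 6 (ISG15, OAS3, ISG20, IFITM2, IFITM3 and LGALS3BP) higher, while 26.8% of all genes tested were lower and 26.0% higher. Such fits leave 1 control library, which is assumed to vary like the PRDX2 siRNA duplicates. IFITM2 and IFITM3 were among the lower members without control replicate 1 and among the higher members without control replicate 2, so that their direction turned with the control library. With the GC correction 5 members (11.9%) were lower, the 3 genes above together with BST2 and MX1, while the share of all genes lower rose to 8.58%.

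The difference of the PRDX2 siRNA effect between the lines was tested in a fit of all 8 libraries. Of the 46 members tested, 1 passed, beside 0.508% of all 14772 genes with a lower and 0.616% with a higher effect in HT29. This was OAS2, whose effect in HT29 minus that in SW480 was -1.28 on the log2 scale (SE 0.21, adjusted p = 0.0203, edgeR). OAS2 stood at 13.5 and 12.8 CPM with control siRNA and 18.0 and 15.0 CPM with PRDX2 siRNA in SW480 (0.32, SE 0.18, adjusted p = 0.284), so that its groups lay apart in opposite directions in the 2 lines although the SW480 change did not pass. Its neighbour OAS3 and ISG15 came next with -0.48 (SE 0.10) and -0.86 (SE 0.19), each at an adjusted p of 0.0567, and did not pass. HERC5 followed at -1.68 (SE 0.43, adjusted p = 0.0885). Over the 42 members tested in both lines, the difference was below 0 in 34 and had a median of -0.33, beside 0.02 for all 12331 genes tested in both lines. The OAS2 call was lost without any 1 of the HT29 libraries or of the SW480 PRDX2 siRNA libraries. Calls over all genes also became far fewer in those fits. The OAS2 call was also lost on log2(TPM + 1) and log2(TPM + 0.1) with limma, where 0.399% and 0.149% of all genes were lower in HT29. Across the alternatives the OAS2 difference stayed between -1.42 and -1.11. Without SW480 control replicate 1 the number of members lower in HT29 rose to 10 (21.7%), while that of all genes rose to 4.28%. Without replicate 2, 14 (30.4%) were lower and 3 (6.52%) higher, beside 17.4% and 18.3% of all genes. A member that passed in HT29 and did not pass in SW480 was not thereby shown to differ between the lines.

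With control siRNA alone, most interferon-stimulated genes stood higher in HT29 than in SW480. In the 8-library fit, 33 of the 46 tested members (71.7%) were higher in HT29 and 9 (19.6%) lower, whereas 34.2% of all genes were higher and 39.0% lower. The median log2 ratio of HT29 to SW480 was 1.24 for the members and -0.06 for all genes. Under the GC correction these were 1.48 and 0.22. The order of levels, given in TPM because that unit is scaled by length, differed between the lines. The effective lengths behind the TPM values lay 51.7 to 59.3 bases (median per library) below the gene lengths. A larger deduction would raise short genes such as IFI27, ISG15 and the IFITM genes relative to longer ones, so the order between short and long genes depends on that setting. In HT29 the highest members were LGALS3BP at 911 ± 12.9 TPM (SD, n = 2), IFI27 at 468 ± 21.6, ISG15 at 329 ± 18.6 and BST2 at 300.1 ± 3.88 TPM. IFITM3 followed at 102 ± 2.16 TPM, and IFITM2, IFI6 and OAS1 at 96.7 ± 1.46, 94.7 ± 0.502 and 94.1 ± 0.537 TPM differed from each other by under 3 TPM. In SW480 the highest were IFITM2 at 467 ± 98.8, IFITM3 at 309 ± 91.2 and LGALS3BP at 281 ± 42.8 TPM, whose order lay within the spread of the duplicates for IFITM3 and LGALS3BP. ISG15 and IFITM1 came next at 97.0 ± 20.3 and 88.9 ± 12.9 TPM, also within their spread.

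IFI27 differed widely between the lines, at 468 ± 21.6 TPM in HT29 and 9.57 ± 1.51 TPM in SW480, a log2 ratio of 5.74 (SE 0.15, adjusted p = 4.98e-11, edgeR). OASL (3.66, SE 0.19), DDX60 (3.54, SE 0.18) and IFIT1 (2.95, SE 0.17) followed. RSAD2 and IFI44L had no count in either SW480 control library, against 54 and 92 counts over the HT29 controls. Set against a floor of 3 counts over the SW480 control group, which covers counting error only, they were at least 16.9-fold and 28.8-fold higher in HT29. IFI44 had 1 count over the SW480 controls and 408 over the HT29 controls. The 9 members lower in HT29 were UBE2L6 (-2.53, SE 0.14), IFITM1 (-2.33), IFITM2 (-2.14), EPSTI1 (-1.59), IFITM3 (-1.46), HERC5 (-1.42), STAT2 (-1.12), IFIH1 (-0.60) and IRF1 (-0.49). All 3 IFITM genes were thus lower in HT29, as were 2 of the ISG15 enzymes. The 4 IFIT genes and the 6 tested genes of the group of SP, TRIM and PARP genes with DTX3L were higher in HT29 without exception in this fit. Summed over the 47 members, the level was 3429 and 3493 TPM in the HT29 control libraries, 2671 and 2686 TPM in the HT29 PRDX2 siRNA libraries, 1870 and 2225 TPM in the SW480 controls and 2175 and 2158 TPM in the SW480 PRDX2 siRNA libraries. The SW480 PRDX2 siRNA values lay between those of its controls.

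**Figure D3:**
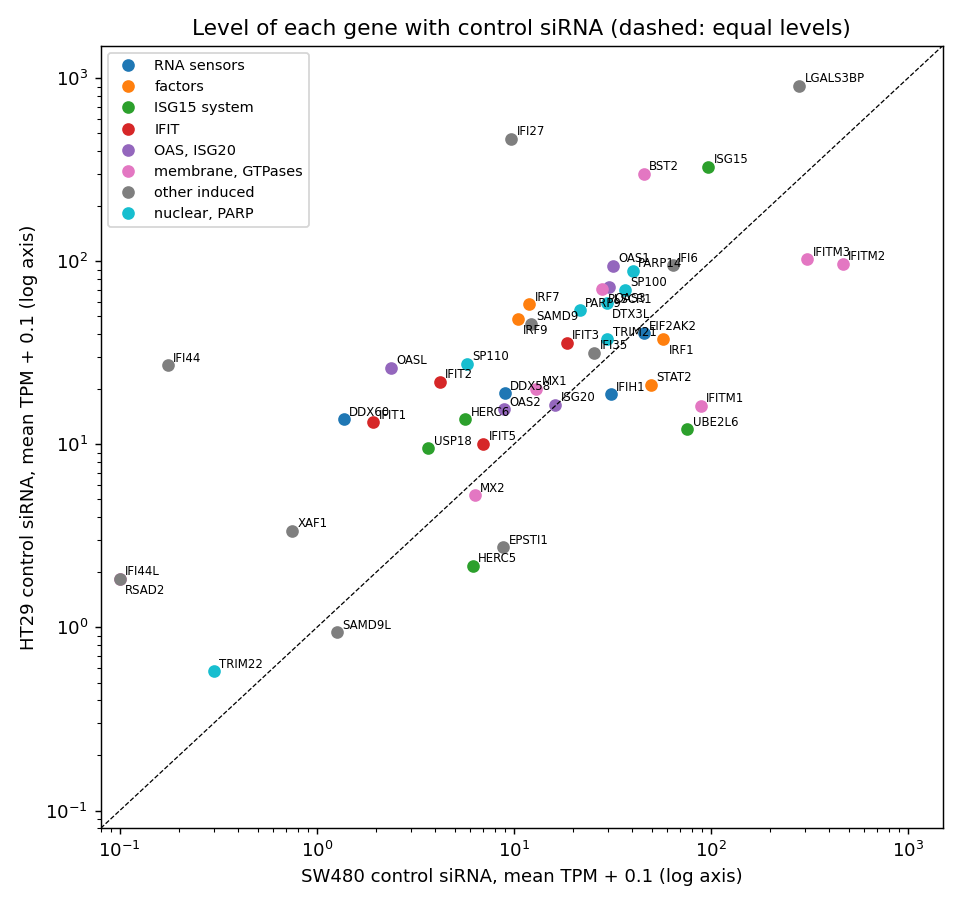
The mean TPM + 0.1 with control siRNA in HT29 (vertical) is plotted against that in SW480 (horizontal) for the 47 members on log axes, colored by role, with equal levels on the dashed line. Of the 47, 35 lie above the line, and IFI27, IFI44, IFI44L and RSAD2 lie farthest above it. IFI44L and RSAD2, at 0 in SW480, coincide at the left edge.

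Of the pathway genes around the members, 1 of 28 tested (3.57%) was higher in HT29 and none was lower. Of all genes tested in HT29, 7.76% were higher and 9.82% lower. None of 28 passed in SW480, where only 1.22% of all genes tested were higher and 2.08% lower. Of 8 interferon genes in the list, IFNA1, IFNB1, IFNG, IFNK and the lambda interferons had at most 1 count in any library, and IFNE, an epithelial interferon, had 0.923 to 2.24 CPM in HT29 and did not pass. Of 6 receptor chains, 1 was higher in HT29 and none passed in SW480. IFNAR1 was at -0.07 (SE 0.078) in HT29 and 0.00 (SE 0.11) in SW480, and IFNAR2 at -0.18 (SE 0.14) and -0.36 (SE 0.14). The higher receptor chain was IFNGR1, which binds interferon gamma, at 129 and 127 CPM with control siRNA and 167 and 159 CPM with PRDX2 siRNA in HT29 (0.35, SE 0.045, adjusted p = 3.35e-05). It is named here after its value was seen.

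None of 4 kinases and STAT proteins passed in either line, with medians of 0.05 in HT29 and 0.37 in SW480. JAK1 was at -0.04 (SE 0.05) in HT29 and -0.05 (SE 0.11) in SW480. TYK2 was at 0.02 (SE 0.072) and 0.40 (SE 0.13). None of the 13 tested genes of RNA and DNA sensing upstream of interferon, such as the adaptor MAVS and the kinase TBK1, passed in HT29, and their median was -0.04. The 12 tested in SW480 had a median of 0.21 and none passed. Of the negative regulators, none of 4 tested in HT29 or 6 tested in SW480 passed. At the shares of all genes tested, lists this short hold few calls or none, so these counts do not show an unchanged pathway.

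Of 39 other interferon-stimulated genes, 33 were tested in HT29, and 11 (33.3%) were lower and 1 (3.03%) higher, beside 9.82% and 7.76% of all genes tested, with a median of -0.12. The lower ones were RARRES3, APOL1, LY6E, APOL2, PARP10, ZC3HAV1, TRIM14, SLFN5, RNF213, HELZ2 and ADAR, and the higher one was PNPT1, all named after their values were seen. In SW480 35 were tested, none was lower, 1 (TNFSF10) was higher, beside 2.08% and 1.22% of all genes tested, and the median was 0.03. In the test of the difference none of these 39 genes and none of the pathway genes passed in edgeR, with 37 and 31 tested. Of all genes tested, 0.508% had a lower and 0.616% a higher effect in HT29. Lists this short hold few calls or none at such shares.

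**Figure D4:**
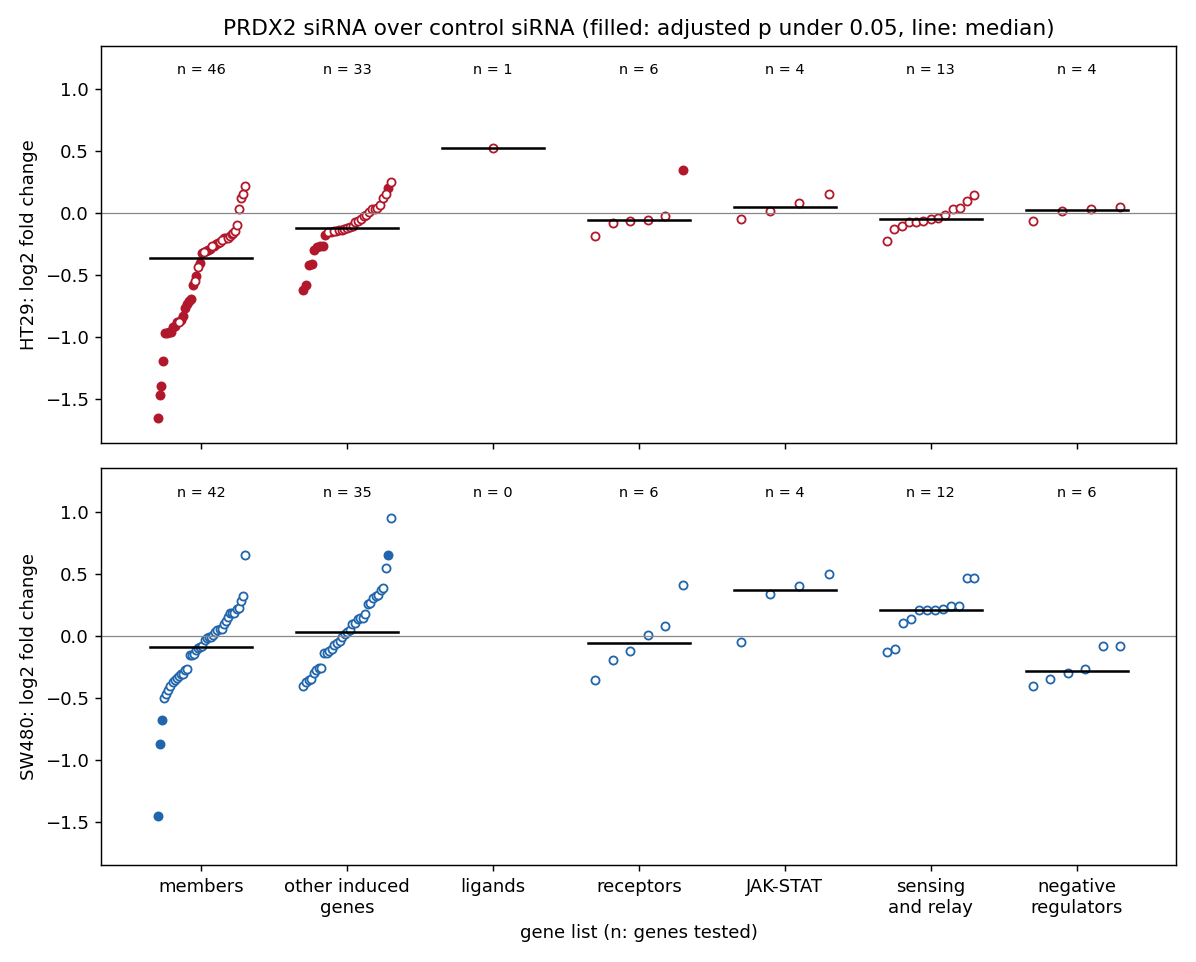
Each point is the log2 fold change of a gene (PRDX2 siRNA over control siRNA) in HT29 (upper) and SW480 (lower), by list, with medians as lines and filled points where the adjusted p was under 0.05. In HT29 the members have a median of -0.36 and the other interferon-stimulated genes of -0.12, while the medians of receptors, kinases and STAT proteins, sensing genes and negative regulators lie between -0.06 and 0.05.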

How the data were processed

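Messenger RNA of HT29 and SW480 cells was measured in 8 libraries, 2 for each line and siRNA, grouped by the sample labels. The authors prepared libraries with a TruSeq kit that does not mark strand, aligned reads to hg19 and, for every gene symbol, deposited an RSEM expected count, a TPM and an FPKM value. The FPKM values that the authors deposited were only summed as a check. RSEM shares reads between similar genes, which can move counts between paralogs.

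Expected counts were rounded and tested with edgeR 4.0.16 (TMM normalization, glmQLFit and glmQLFTest, Benjamini-Hochberg adjustment over all genes tested, threshold 0.05). A gene entered a fit when 2 or more of its libraries held 10 or more counts. Each line was fitted alone. The difference between lines and the control levels came from 1 fit of 8 libraries. The standard error (SE) is the absolute log2 fold change over the square root of F. CPM values are TMM-normalized within a line, and TPM values, scaled by the authors to length and library, were used to compare levels between genes. Alternatives were RLE normalization, no filter, a replicate block, a loess GC correction (span 0.5), DESeq2 1.42.0, limma 3.58.1 on TPM values (log2 with a pseudocount of 1 or 0.1), all 8 libraries in 1 fit, and each library left out. The scripts were tested on simulated data.

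Gene coordinates come from the GENCODE annotation of GRCh37, to which, directly or through RefSeq synonyms, 89.2% of symbols were matched. Promoter windows come from RefSeq (GRCh38.p14), and in all 39 members with a window the 40 bases after the start were found in an annotated transcript of the gene. Values in every library were given for each member with an adjusted p under 0.05 in either line or in the difference, and ranges for the rest. Promoters were shown for at most 8 members with a match and the smallest p in HT29. The members and gene lists were chosen with earlier results of these data known. For 2 genes of the pathway and marker lists, results are not reported here, and the list counts leave them out.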

Additional observations from a re-analysis of the deposited data

Results flagged for a closer look

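The effect of PRDX2 siRNA on OAS2 differed between the cell lines, with -1.28 on the log2 scale for HT29 minus SW480 (SE 0.21, adjusted p = 0.0203 over 14772 genes, by the edgeR test of the difference). Across the alternatives the difference stayed between -1.42 and -1.11, with adjusted p between 1.72e-04 and 0.172, and it kept an adjusted p under 0.05 in 7 of the 15 alternatives that gave one. No group held enough libraries for a check of single libraries that stand far from the rest.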

How the results depend on the processing

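In HT29 29 members were lower and none higher in edgeR. The number lower was 12 with all 8 libraries fitted together (0.670% of all genes lower) and 19 with DESeq2 (4.29%). With each library left out, the median log2 fold change of the members stayed between -0.41 and -0.35, beside 0.00 for all genes. With the GC correction, alone or with the replicate block, 1 member (IRF1) was higher. No called member changed sign in any alternative, and 12 (DDX60, ISG15, HERC6, IFIT1, IFIT3, OAS2, OASL, BST2, MX1, IFI6, IFI27 and IFI44) kept their call in all 13.

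In SW480 3 members were lower. The number was 5 with the GC correction (11.9% of members, 8.58% of all genes), 6 with the GC correction and the replicate block (14.3% and 11.6%, with 2 higher) and 5 with all 8 libraries fitted together (10.9% and 9.07%). On log2(TPM + 1) and log2(TPM + 0.1) with limma it was 0, where 0.624% and 0.496% of all genes were lower. With each library left out, the median log2 fold change of the members stayed between -0.12 and -0.03, beside 0.00 for all genes. Over all SW480 genes, edgeR gave 172 higher and 294 lower, the GC correction 1054 and 1154, and limma on log2(TPM + 1) 126 and 88.

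In the test of the difference 1 member was lower in HT29. The number was 3 without a filter, 7 with the GC correction with or without the block (3.31% and 3.27% of all genes), 2 with DESeq2 (ISG15 and OAS3), 0 with limma on either pseudocount, and 0 to 14 lower and 0 to 3 higher with each library left out. DESeq2 gave no adjusted p for the difference to 24 of the 46 members, OAS2 among them, so it did not decide OAS2. Of all genes, 0.641% were lower in HT29 without a filter and 1.04% with DESeq2. The shares with limma were 0.399% on log2(TPM + 1) and 0.149% on log2(TPM + 0.1). For the control levels, the GC correction moved the median of all genes from -0.06 to 0.22 and the split over all genes from 5050 higher and 5765 lower to 6907 and 4527, and no count of members moved by over 1.5 times in any alternative.

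Deviations from the group means correlated between libraries of the same replicate number at 0.10 across genes in HT29 and at 0.11 in SW480, and the labels do not tie the numbers to a shared batch. With the replicate block, 33 members (71.7%) were lower in HT29, beside 12.2% of all genes, and all 29 called members were kept. In SW480 3 (7.14%) were lower and 1 (ISG20, 2.38%) higher, beside 6.16% and 6.08% of all genes. In the difference 3 (6.52%) were lower, beside 0.704% of all genes. For the control levels 9 (19.6%) were lower and 32 (69.6%) higher, beside 36.5% and 32.0% of all genes. The causes of these shifts were not tested. At these depths, RSAD2, IFI44L, XAF1 and HERC5 rest on few counts.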
